A study of Homo sapiens with 24 samples.

Results

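The expression of 10 genes of retinoid metabolism and the aldehyde dehydrogenase family was described across 6 groups of libraries from immortalized human prostate epithelial cells. The genes were ALDH1A1, ALDH1A3, ALDH3A1, ALDH3B1, SDR16C5, DHRS3, DHRS9, RDH10, CRABP2 and RARRES1. They were selected by symbol from the 60448 symbols of the deposited count tables, and all 10 were found there as protein-coding genes. The study overexpressed the wild-type kinase C-Raf to ask how its dosage drives metastasis, and this RNA sequencing set followed cells from vector control to parental C-Raf cells to lines grown out of metastases.

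BPH-1 cells are immortalized by SV40 and were grown in serum, in DMEM per the labels and in RPMI per the methods. RWPE-1 cells carry HPV18 genes and were grown in serum-free keratinocyte medium with pituitary extract and EGF. The vector control cells of both lines carried the lentiviral vector with a firefly luciferase reporter and no C-Raf insert, and the C-Raf parental cells carried the same vector with wild-type C-Raf. The titles of the BPH-1 vector and parental libraries also name a secreted Gaussia luciferase. The metastasis-derived lines were cultured from macroscopic tumors that C-Raf cells had formed after intracardiac injection into immunodeficient NSG mice. There were 3 BPH-1 libraries of vector control cells, 3 of C-Raf parental cells and 6 of metastasis-derived lines, of which 5 were titled bone and 1 thymus. For RWPE-1 there were 1 library of vector control cells, 4 of C-Raf parental cells and 7 of metastasis-derived lines, of which 2 came from lymph node, 2 from spine and 3 from bone. These are bulk samples, in which fewer cells of a type and less RNA per cell cannot be told apart. For the pair of BPH-1 lines numbered R075, title and treatment label name opposite sites, so both entered without a site. Culture medium and cell line cannot be told apart in any comparison of BPH-1 with RWPE-1.

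Retinol enters epithelial cells and is either stored as an ester or oxidized to retinaldehyde by short-chain dehydrogenases. Aldehyde dehydrogenases of the ALDH1A class then oxidize retinaldehyde irreversibly to retinoic acid, which binding proteins deliver to nuclear receptors. In prostate epithelium retinoic acid is known for its part in differentiation, and ALDH activity is often used to mark progenitor-like cells.

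Among the 21 deep libraries, protein-coding counts ran from 20565835 to 41989693. The BPH-1 metastasis-derived replicates 2, 4 and 5 held 464739, 132383 and 111176 protein-coding counts, and RN7SL1, the RNA of the signal recognition particle, took 93.3% to 97.5% of all their counts. These 3 low-depth libraries were left out of every test unless stated otherwise. RN7SL1 also took 4.60% to 30.3% of the counts in the 3 deep BPH-1 metastasis-derived libraries (replicates 1, 3 and 6), and at most 0.0093% in every other deep library. Those metastasis-derived libraries were deposited in a separate table from the remaining BPH-1 libraries, so in BPH-1 the effect of stage and that of table cannot be told apart. All 10 epithelial markers checked, EPCAM, KRT5 and TP63 among them, had a mean of at least 1 CPM in every group, whereas the luminal prostate markers KLK3 and KLK2 were at or near 0. Levels are given as CPM, protein-coding counts scaled to library size with TMM factors. Tests used the quasi-likelihood method of edgeR, with p-values adjusted over all genes tested by Benjamini and Hochberg, and a gene was called at an adjusted p below 0.05.

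**Figure D1:**
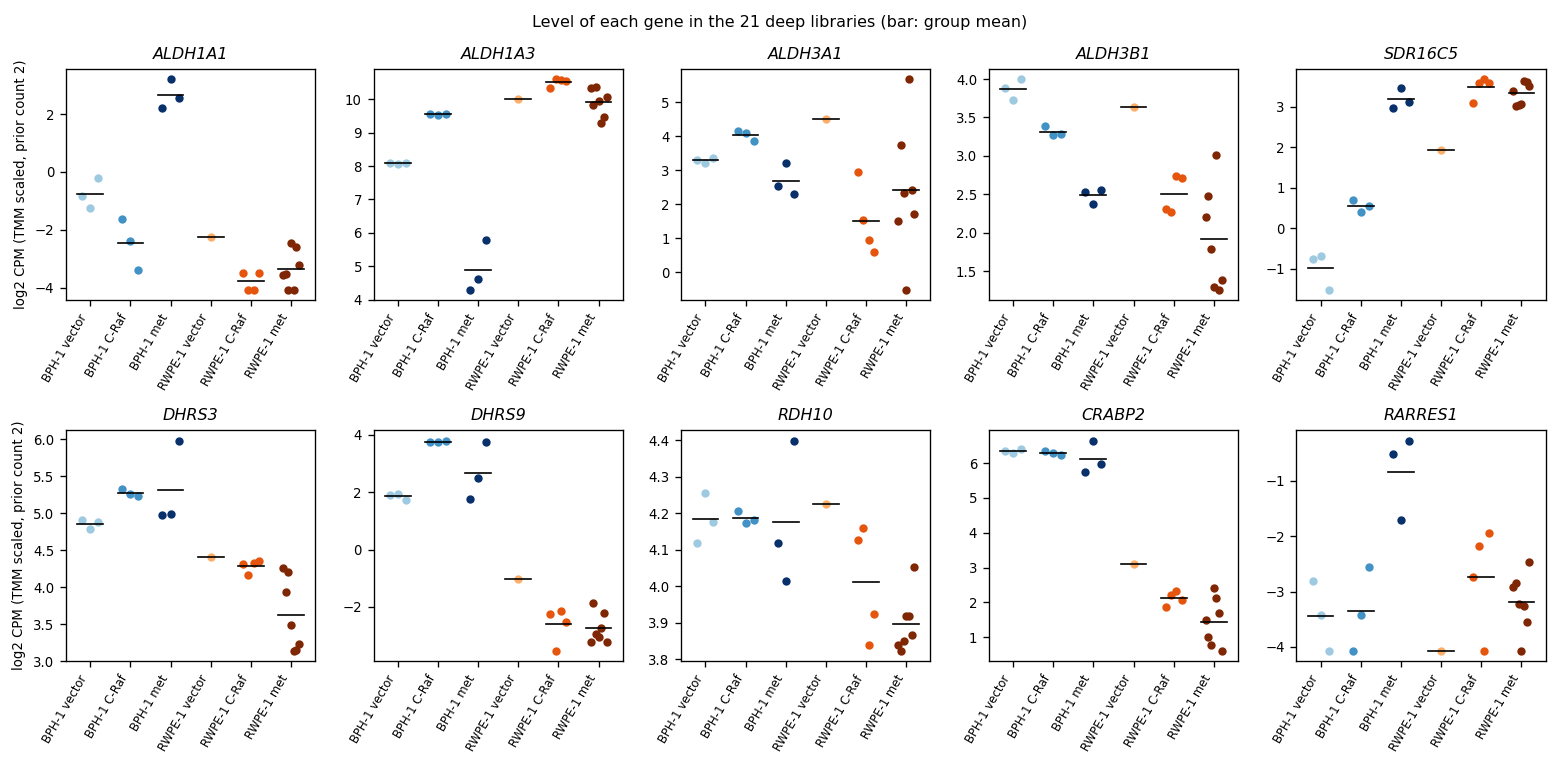
Level of each of the 10 genes in the 21 deep libraries, as log2 CPM on an axis that differs between panels. Points are libraries and bars are group means. ALDH1A3 was lowest and ALDH1A1 highest in the 3 deep BPH-1 metastasis-derived libraries, while RDH10 stayed between 14.1 and 21.04 CPM in all 21.

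ALDH1A3 and ALDH1A1 moved in opposite directions in BPH-1, and their promoters are shown first because, of the 9 genes tested, these had the largest changes between C-Raf parental cells and the lines grown from metastases. The sequences are the 250 bases before the start in RefSeq (GRCh38.p14), read 5′ to 3′ on the strand of the gene, with each CpG in capitals. The ALDH1A1 window is chr9:72953054-72953303 on the minus strand and the ALDH1A3 window is chr15:100879581-100879830 on the plus strand.
ALDH1A1: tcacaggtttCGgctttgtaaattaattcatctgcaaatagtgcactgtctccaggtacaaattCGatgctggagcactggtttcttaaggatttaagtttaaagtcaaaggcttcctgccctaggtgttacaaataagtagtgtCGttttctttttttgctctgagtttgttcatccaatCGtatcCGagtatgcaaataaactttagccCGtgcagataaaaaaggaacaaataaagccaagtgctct
ALDH1A3: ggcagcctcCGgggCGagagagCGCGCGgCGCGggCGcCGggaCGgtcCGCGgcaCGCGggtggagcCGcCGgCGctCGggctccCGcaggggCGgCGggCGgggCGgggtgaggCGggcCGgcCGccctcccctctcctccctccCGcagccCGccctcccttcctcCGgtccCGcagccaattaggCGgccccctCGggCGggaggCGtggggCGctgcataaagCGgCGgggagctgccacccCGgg
The ALDH1A3 window held 38 CpG and 82.4% GC, and the ALDH1A1 window held 6 CpG and 38.4% GC. Over 35116 promoters of the same length the median was 11 CpG, and 96.7% of promoters had fewer CpG than ALDH1A3 against 38.1% for ALDH1A1. The retinoic acid receptor motifs DR1, DR2 and DR5, direct repeats of its half-site, were searched on both strands. They occurred in 0.202% of all promoters and in none of the windows matched for 7 of the 10 genes. ALDH3A1, SDR16C5 and RDH10 had no entry in the promoter table.

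ALDH1A3 converts retinaldehyde to retinoic acid and lies on the plus strand of chromosome 15 (100877714-100916626, GENCODE on GRCh38). Its transcripts shared 24.1% of their distinct 50-base words with AC015712.2 on the other strand, so reads of these 2 genes could not be told apart if strand was not used in counting. Per kilobase of exon its mean level was the highest of the 10 genes in BPH-1 C-Raf parental cells (131 CPM per kb) and in all 3 RWPE-1 groups (253 CPM per kb in C-Raf parental cells). In BPH-1 vector control it was second to CRABP2, at 46.8 against 73.9 CPM per kb. In BPH-1 vector control, ALDH1A3 measured 271, 269 and 271 CPM. In BPH-1 C-Raf parental cells, ALDH1A3 measured 761, 746 and 761 CPM. In the deep BPH-1 metastasis-derived libraries, ALDH1A3 measured 19.7, 24.4 and 55.0 CPM. The 3 groups did not overlap: ALDH1A3 was higher with C-Raf and then lower in the metastasis-derived lines than in either other BPH-1 group. The log2 fold change of ALDH1A3 was 1.49 ± 0.03 (SE, n = 3 and 3, adjusted p = 6.7e-27) from vector to C-Raf parental and -4.47 ± 0.45 (n = 3 and 3, adjusted p = 0.00204) from C-Raf parental to metastasis-derived.

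ALDH1A3 in RWPE-1 was high throughout. It measured 1027 CPM in the single vector control library and 1290, 1547, 1511 and 1502 CPM in the 4 C-Raf parental libraries. The 7 metastasis-derived libraries ran from 629.7 to 1320 CPM with a median of 981 CPM, overlapping the parental range at its lower end. The difference of -0.56 ± 0.19 on the log2 scale (SE, n = 7 and 4) was not called (adjusted p = 0.433, unadjusted p = 0.0117). Within the table that holds 1 parental and 3 metastasis-derived libraries the difference of mean log2 levels was -0.15, and within the other RWPE-1 table it was -0.87.

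ALDH1A1, the other retinaldehyde dehydrogenase of the set (chromosome 9, 72900662-73080442, minus strand), was close to absent except in the deep BPH-1 metastasis-derived libraries. It measured 0.499, 0.365 and 0.812 CPM in BPH-1 vector control and 0.268, 0.134 and 0.0368 CPM in C-Raf parental cells, where the counts were 1 to 8 per library. In the deep metastasis-derived libraries it measured 4.55, 9.16 and 5.79 CPM, from 111 to 151 counts each. The 3 groups did not overlap. ALDH1A1 fell by 1.89 ± 0.47 on the log2 scale with C-Raf (SE, n = 3 and 3, adjusted p = 0.00109) and rose by 5.47 ± 0.65 from C-Raf parental to metastasis-derived (n = 3 and 3, adjusted p = 0.00277). In each comparison ALDH1A1 passed the filter on low counts through the higher group alone, which had 11 to 28 counts in vector control. These tests are therefore tilted toward a difference. With at least 10 counts required in every library ALDH1A1 was not tested. In RWPE-1 it never exceeded 0.153 CPM and had at most 5 counts in any library, so it was not tested there. The plot of ALDH1A1 against ALDH1A3 shows the 3 deep BPH-1 metastasis-derived libraries apart from the other 18.

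**Figure D2:**
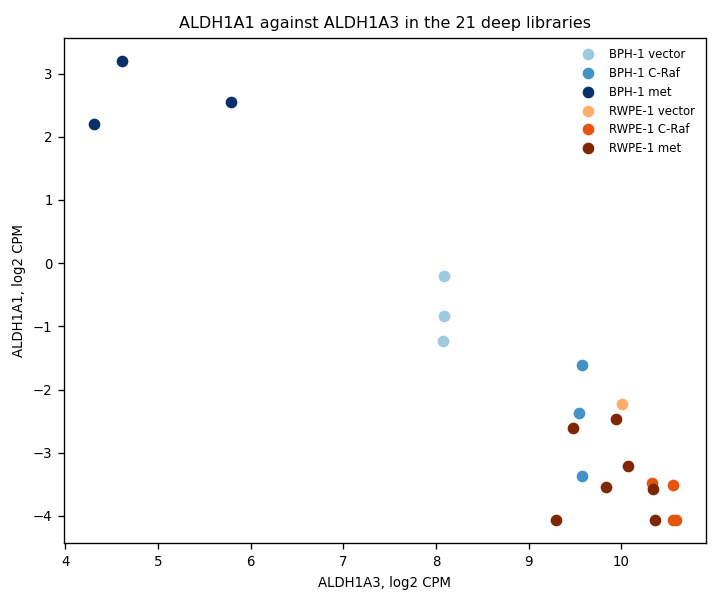
ALDH1A1 against ALDH1A3 level (log2 CPM, prior count 2) in the 21 deep libraries, each point a library colored by group. The 3 deep BPH-1 metastasis-derived libraries combine ALDH1A3 of 55.0 CPM or less with ALDH1A1 of 4.55 CPM or more, and every other deep library has ALDH1A3 of 269 CPM or more and ALDH1A1 of 0.812 CPM or less.

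Of the 10 genes, 9 passed the filter on low counts in the comparison of BPH-1 C-Raf parental cells with vector control, and 5 rose and 2 fell. In this comparison 59.8% of the 13223 genes tested were called, 30.4% higher and 29.4% lower, so the 7 of 9 is read against a high background. Within the BPH-1 vector and C-Raf groups, squared differences between replicates averaged over genes 1.66 to 4.25 times the variance expected from counting alone. In RWPE-1 this ratio of variances was 26.8 to 213 among C-Raf parental libraries and 15.8 to 176 among metastasis-derived ones. Among the deep BPH-1 metastasis-derived libraries it was 189 to 987. Nothing in the labels says that replicates were separate cultures, so p-values measure only the spread between these samples, which may be technical. In a single fit of all 6 groups, whose spread includes that of the metastasis-derived lines, 3 genes were called in this comparison (ALDH1A3, SDR16C5 and DHRS9, all higher).

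Comparing deep BPH-1 metastasis-derived libraries with C-Raf parental cells, 9 genes were again tested, 2 rose and 3 fell, and 37.7% of 13446 genes were called, 20.9% higher and 16.8% lower. With library totals in place of TMM the log2 fold changes of all genes had a median that moved from 0.07 to -0.30 and the calls from 2816 higher and 2256 lower to 1622 higher and 2408 lower. Besides the ALDH1A genes these were SDR16C5, ALDH3A1 and ALDH3B1. Markers of other cell types also differed here. The summed level of 9 fibroblast markers was 57.8 to 74.5 CPM in the metastasis-derived libraries and 12.3 to 12.6 CPM in the parental ones. COL1A1 was the main contributor (59.1 against 11.3 CPM), and DCN, LUM and COL1A2 were at or near 0 in both. FAP averaged 2.70 against 0.141 CPM and PDGFRB 1.03 against 0.834 CPM. At lower levels PDGFRA averaged 0.699 against 0 CPM, COL3A1 0.370 against 0 CPM and THY1 0.315 against 0.0680 CPM. The summed level of 5 endothelial markers was 3.03 to 41.0 CPM against 1.60 to 1.69 CPM, mostly VWF, with PECAM1 and KDR near 0. The summed level of 9 haematopoietic markers was 8.17 to 25.1 CPM against 28.7 to 32.007 CPM, mostly CD68, with PTPRC near 0. The epithelial keratin KRT14 averaged 4676 CPM in the metastasis-derived libraries against 327 CPM in the parental ones, and KRT8 123 against 994 CPM. The part of these differences, and of RN7SL1, in the results was not tested.

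**Figure D3:**
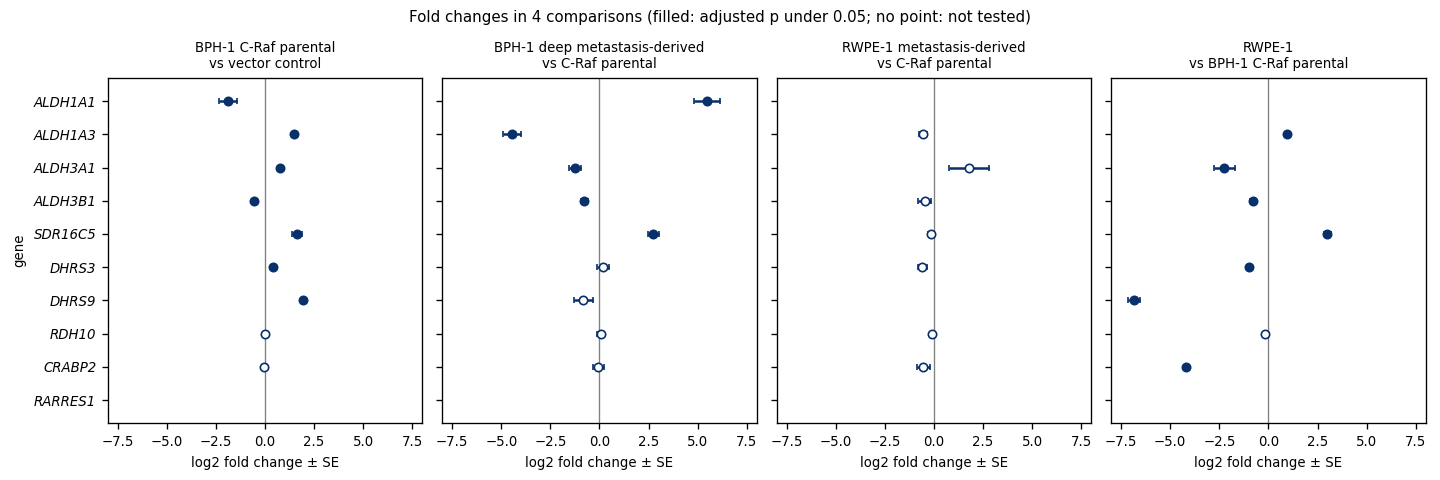
Log2 fold change with its standard error for each gene in 4 comparisons, filled where the adjusted p is below 0.05. ALDH1A3 and ALDH1A1 have opposite signs in both BPH-1 comparisons, no gene is filled in RWPE-1 metastasis-derived against C-Raf parental, and DHRS9 and CRABP2 lie far left in RWPE-1 against BPH-1.

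The retinol-oxidizing enzymes behaved differently from each other. SDR16C5, an epithelial retinol dehydrogenase (chromosome 8, 56300010-56320776, minus strand), measured 0.526, 0.564 and 0.290 CPM in BPH-1 vector control and 1.57, 1.27 and 1.40 CPM in C-Raf parental cells. It measured 7.76, 10.98 and 8.55 CPM in the deep metastasis-derived libraries. The groups rose stepwise without overlap, by 1.63 ± 0.26 (SE, n = 3 and 3, adjusted p = 4.7e-06) and then 2.74 ± 0.27 (n = 3 and 3, adjusted p = 0.00204) on the log2 scale. In RWPE-1, SDR16C5 was 3.73 CPM in the vector control library, 8.52, 12.03, 12.7 and 12.006 CPM in C-Raf parental cells and 7.99 to 12.3 CPM (median 10.4) in the metastasis-derived lines. The parental and metastasis-derived RWPE-1 ranges overlapped, with a difference of -0.16 ± 0.16 (adjusted p = 0.856).

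RDH10, the main retinol dehydrogenase of development (chromosome 8, 73294612-73325281, plus strand), did not pass the test in any comparison with TMM factors. With library totals in place of TMM it was lower in RWPE-1 than in BPH-1 C-Raf parental cells (-0.22, adjusted p = 0.0396, against -0.16 and 0.158 with TMM). It measured 17.3 to 19.0 CPM in BPH-1 vector control, 18.0 to 18.4 CPM in C-Raf parental cells and 16.1 to 21.04 CPM in the deep metastasis-derived libraries. In RWPE-1 it was 18.7 CPM in the vector control library, 14.2 to 17.8 CPM in C-Raf parental cells and 14.1 to 16.5 CPM in the metastasis-derived lines. Its log2 fold changes within the cell lines were 0.01 ± 0.06, 0.06 ± 0.17 and -0.12 ± 0.08 (SE).

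DHRS9, a dehydrogenase of retinol and hydroxysteroids (chromosome 2, 169064789-169096167, plus strand), measured 3.71, 3.75 and 3.22 CPM in vector control and 13.5, 13.3 and 13.9 CPM in C-Raf parental cells, a rise of 1.94 ± 0.09 on the log2 scale (SE, n = 3 and 3, adjusted p = 2.7e-17). The deep metastasis-derived libraries were spread over 3.31, 5.61 and 13.3 CPM, and the difference from parental cells was not called (-0.82 ± 0.49, adjusted p = 0.222). Replicate 6 decided this: without it the change was -1.55 with an adjusted p of 0.00972. In RWPE-1 DHRS9 was at 0.428 CPM in the vector control library and at most 0.212 CPM in all others.

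DHRS3, which reduces retinaldehyde back to retinol (chromosome 1, 12567910-12617731, minus strand), rose modestly with C-Raf in BPH-1. It measured 30.005, 27.6 and 29.4 CPM in vector control and 40.0, 38.3 and 37.5 CPM in C-Raf parental cells (0.42 ± 0.04, adjusted p = 4.9e-09). Of the deep metastasis-derived libraries 2 were at 31.5 and 31.6 CPM and replicate 6 was at 63.3 CPM, and the difference was not called (0.18 ± 0.29, adjusted p = 0.651). In RWPE-1 it was 21.2 CPM in the vector control library, 17.9 to 20.4 CPM in C-Raf parental cells and 8.75 to 19.0 CPM (median 11.1) in the metastasis-derived lines. That difference of -0.59 ± 0.23 was not called (adjusted p = 0.516, unadjusted p = 0.0233), and it was -0.18 within the table with 1 parental library and -1.03 within the other table.

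The ALDH3 enzymes oxidize other aldehydes than retinaldehyde. ALDH3A1, which acts on medium-chain and aromatic aldehydes (chromosome 17, 19737984-19748943, minus strand), measured 9.89, 9.23 and 10.1 CPM in BPH-1 vector control and 17.7, 16.98 and 14.5 CPM in C-Raf parental cells. It fell to 5.71, 9.24 and 4.91 CPM in the deep metastasis-derived libraries. The changes were 0.76 ± 0.07 (adjusted p = 5.9e-10) and -1.25 ± 0.30 (adjusted p = 0.0211) on the log2 scale. The second call was lost without any 1 of the 3 parental libraries or without metastasis-derived replicate 1, with adjusted p of 0.0628 to 0.0818, and also in the single fit of all 6 groups (0.279) and with the 3 low-depth libraries (0.0606). ALDH3A1 was the most uneven gene in RWPE-1, at 22.8 CPM in the vector control library and 7.65, 2.83, 1.88 and 1.45 CPM in C-Raf parental cells. The metastasis-derived lines ran from 0.638 to 51.2 CPM with a median of 4.92 CPM. The difference of 1.76 ± 1.02 was not called (adjusted p = 0.711), and its sign differed between the tables, at -0.42 and 1.29. It was 0.55 without metastasis-derived replicate 5, a bone line and the library at 51.2 CPM, and 2.50 without parental replicate 1.

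ALDH3B1, which clears aldehydes from lipid peroxidation (chromosome 11, 68008578-68029282, plus strand), was lower at each stage in BPH-1. It measured 14.7, 13.2 and 15.9 CPM in vector control, 10.4, 9.63 and 9.65 CPM in C-Raf parental cells and 5.71, 5.12 and 5.83 CPM in the deep metastasis-derived libraries, without overlap. The changes were -0.56 ± 0.07 (adjusted p = 2.3e-07) and -0.77 ± 0.19 (adjusted p = 0.021). The second call was lost without any 1 of the 3 parental libraries, with adjusted p of 0.0964 to 0.113, and also in the single fit of all 6 groups (0.0574) and with the 3 low-depth libraries (0.165). In RWPE-1 the vector control library was at 12.3 CPM, the C-Raf parental libraries at 4.77 to 6.63 CPM and the metastasis-derived lines at 2.34 to 8.03 CPM, with a difference of -0.47 ± 0.33 (adjusted p = 0.778).

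CRABP2, which carries retinoic acid to its receptors (chromosome 1, 156699606-156705816, minus strand), was high in BPH-1 and low in RWPE-1. It measured 81.2, 78.4 and 84.2 CPM in BPH-1 vector control and 82.0, 78.7 and 75.7 CPM in C-Raf parental cells (-0.04 ± 0.04, adjusted p = 0.357, and 0.0221 for -0.095 with library totals in place of TMM). The deep metastasis-derived libraries were at 53.6, 100.3 and 62.6 CPM. The difference of -0.06 ± 0.28 was not called (adjusted p = 0.878), and without replicate 3, whose TMM factor was 0.589, it was -0.41 with an adjusted p of 0.0125. In RWPE-1 CRABP2 was 8.50 CPM in the vector control library, 3.60 to 4.92 CPM in C-Raf parental cells and 1.46 to 5.29 CPM in the metastasis-derived lines. RARRES1, a retinoic acid receptor responder (chromosome 3, 158696892-158732696, minus strand), had 0 to 7 counts in every library outside the deep BPH-1 metastasis-derived ones, which held 3 to 20 counts (0.635, 0.248 and 0.767 CPM). It did not pass the filter within either cell line. With no filter the difference of RARRES1 between deep metastasis-derived and parental BPH-1 libraries was 3.46 ± 0.94 (adjusted p = 0.0312), and in the single fit of all 6 groups it was 3.51 (adjusted p = 0.00575). Leaving out a library let it pass the filter in 4 cases, and it was called without parental replicate 3 or metastasis-derived replicate 3 (adjusted p of 0.0456 and 0.00992) and not without parental replicate 1 or 2 (0.072 and 0.101). In those cases RARRES1 passed through the metastasis-derived group alone, with 0 to 3 counts in the BPH-1 parental libraries, so they are tilted toward a rise and give no separate support for it. Its transcripts share 12.7% of their 50-base words with MFSD1 on the other strand.

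In RWPE-1 no gene of the set was called between parental cells and the lines grown from metastases. The test covered 7 of the 10 genes, and 0.0986% of 13180 genes were called, 0.0759% higher and 0.0228% lower. At an unadjusted p below 0.05 there were 2 of these genes (ALDH1A3 and DHRS3, both lower), against 1036 of the 13180 genes. DESeq2 also called 0 of the set, against 168 of all genes. A test of the difference between the cell lines covered 9 genes and called 2 of them, against 44.5% of 14257 genes (23.5% higher and 21% lower in BPH-1). The metastasis effect in BPH-1 minus that in RWPE-1 was -3.94 ± 0.43 for ALDH1A3 (SE, adjusted p = 4.6e-06) and 2.86 ± 0.29 for SDR16C5 (adjusted p = 2.6e-06). ALDH1A1 had the largest difference, 4.02 ± 1.85, which was not called (adjusted p = 0.0875, and 0.0149 with DESeq2). It passed the filter through the deep BPH-1 metastasis-derived libraries alone, with 0 to 4 counts per RWPE-1 library in this fit. The RWPE-1 part of this difference therefore rests on almost no counts, and the test is tilted toward a difference. The difference of -3.06 ± 1.39 for ALDH3A1 was not called either (adjusted p = 0.0843), but was called without RWPE-1 parental replicate 1 (-3.79, adjusted p = 0.0447) or RWPE-1 metastasis-derived replicate 4 (-3.27, adjusted p = 0.0417).

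With only 1 RWPE-1 vector control library, the C-Raf effect in RWPE-1 has no replicate check and was not tested. Of all genes, 12.8% differed by at least 2-fold from the mean of the 4 C-Raf parental libraries, 9.23% being higher and 3.54% lower in the parental cells. SDR16C5 was higher in the parental cells (log2 difference 1.57), and ALDH3A1 (-3.01), ALDH3B1 (-1.12) and DHRS9 (-1.57, on 14 counts in the vector control library) were lower. For ALDH3A1 the difference was -1.57 against the 1 parental library deposited in the same table as the vector control, replicate 1 at 7.65 CPM. ALDH1A1 and RARRES1 also passed this fold, but on 0 to 7 counts per library. The vector control library lay outside the range of the parental libraries for 9 of the 10 genes, against 56.7% of all genes. ALDH3A1 and DHRS9, lower in RWPE-1 C-Raf parental cells, were higher in BPH-1 C-Raf parental cells, and this difference between the lines was not tested.

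The parental C-Raf cells of the 2 lines differed in 7 of the 8 genes tested, against 74% of 13523 genes (38% higher and 36% lower in RWPE-1). Higher in RWPE-1 were ALDH1A3 (0.96 ± 0.09, adjusted p = 5.4e-05) and SDR16C5 (3.004 ± 0.19, adjusted p = 5.9e-06). Lower in RWPE-1 were DHRS9 (-6.84 ± 0.31, adjusted p = 1.5e-06), CRABP2 (-4.19 ± 0.11, adjusted p = 1.9e-07) and ALDH3A1 (-2.25 ± 0.52, adjusted p = 0.00517), with smaller differences for DHRS3 and ALDH3B1. DHRS9 passed the filter on low counts through BPH-1 alone, with 1 to 6 counts per RWPE-1 parental library. Its test is therefore tilted toward a difference. With at least 10 counts required in every library DHRS9 was not tested, and 6 of 7 genes were called. Fitted over both lines with a term for cell line, 0 of 10 genes were called between C-Raf parental and vector control, against 0.814% of 15226 genes (0.420% higher and 0.394% lower). At an unadjusted p below 0.05 there were 3 of these genes, against 1436 of the 15226 genes. DESeq2 called 1 of the set (SDR16C5), against 460 of all genes. The same fit called only ALDH1A1 between metastasis-derived and C-Raf parental cells (4.22 ± 0.94, adjusted p = 0.0207), against 2.50% of genes (1.77% higher and 0.736% lower). That call was lost without any 1 BPH-1 C-Raf parental library (adjusted p of 0.0846 to 0.112). It rests on BPH-1, since RWPE-1 held 0 to 1 counts in parental and 0 to 4 in metastasis-derived libraries. In BPH-1, stage and table cannot be told apart.

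Other genes of retinoid metabolism, retinoic acid response and the aldehyde dehydrogenase family were read from 6 lists with 83 symbols in the tables. In the comparison of BPH-1 C-Raf parental cells with vector control, 17 of the 57 tested were higher and 22 lower, against 30.4% of all genes higher and 29.4% lower. The median log2 fold change of those 57 was -0.05, against 0.00 for all genes. Among called list genes with a mean of at least 1 CPM, TFPI2 (2.84) and AKR1C3 (1.43), a reductase of retinaldehyde and steroids, had the largest rises, and RARRES3 (-1.24) and EGR1 (-1.17) the largest falls. Larger falls were seen only in list genes below that level. TFPI2, RARRES3 and EGR1 belong to the list of retinoic acid response genes, and what changed them was not tested. The receptor RARG fell by 0.73 on the log2 scale.

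In the deep BPH-1 metastasis-derived libraries against C-Raf parental cells, 16 of the 59 list genes tested were higher and 15 lower, against 20.9% of all genes higher and 16.8% lower. Of the 13 uptake and storage genes in the tables, only 7 passed the filter on low counts, and 6 of these were higher. The filter admits a gene that is high in only 1 of the groups compared, which tilts this count toward genes that changed. BCO2, a carotenoid oxygenase, was among the low ones, at 0.301 to 0.836 CPM in parental cells and 4.87 to 5.14 CPM in the metastasis-derived libraries. LRAT, which esterifies retinol for storage, went from 3.58, 3.91 and 3.35 CPM to 27.4, 46.3 and 40.3 CPM (3.46 ± 0.27, adjusted p = 0.00129). STRA6, the receptor that takes up retinol, went from 0.502, 0.535 and 0.479 CPM to 5.01, 5.86 and 4.33 CPM (3.37 ± 0.30, adjusted p = 0.00157). For neither gene did the groups overlap. ADH7, an alcohol dehydrogenase active on retinol, went from at most 0.0334 CPM to 18.7, 27.7 and 6.25 CPM, and SDR9C7 from 0 in all 3 parental libraries to a mean of 6.70 CPM. Of 13 other aldehyde dehydrogenases tested, 2 were higher and 6 lower, against the same 20.9% and 16.8% of all genes. ALDH3B2, a close relative of ALDH3B1, went from 0.301, 0.167 and 0.405 CPM to 22.5, 76.7 and 7.17 CPM (6.998 ± 1.09, adjusted p = 0.0056), opposite in direction to ALDH3B1. The same limit of the filter applies to ALDH3B2, ADH7 and SDR9C7, whose parental levels were low. In RWPE-1 none of the 55 list genes tested was called between metastasis-derived and C-Raf parental cells. ALDH1A2, also of the ALDH1A class, averaged 28.5 CPM in RWPE-1 C-Raf parental cells and 0.0791 CPM in BPH-1 C-Raf parental cells (adjusted p = 2.6e-05). The limit of the filter applies here too, since ALDH1A2 was at 0.0368 to 0.100 CPM in the BPH-1 parental libraries.

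**Figure D4:**
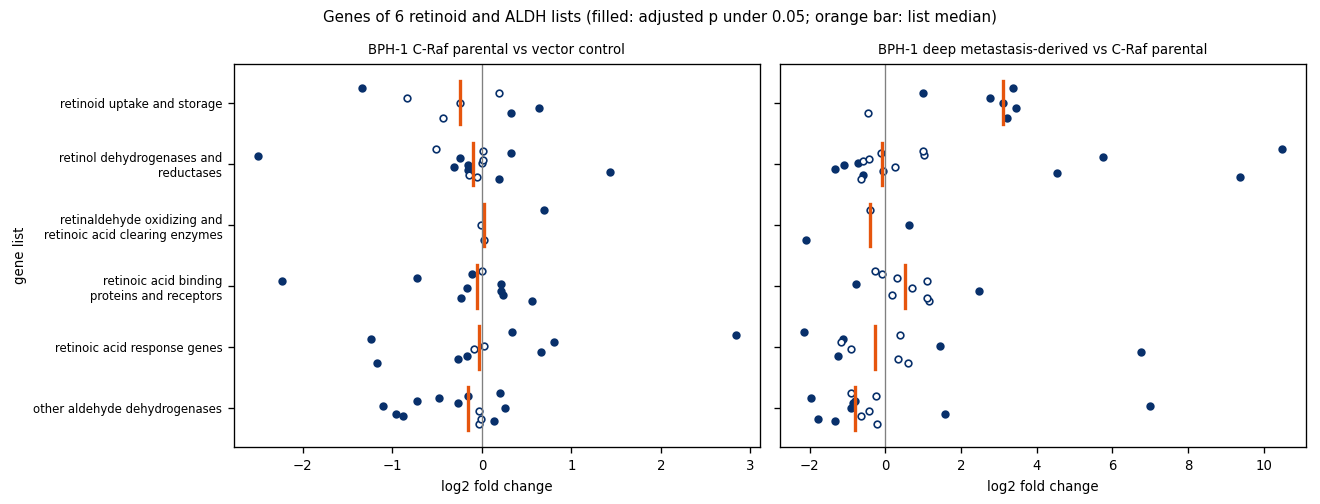
Log2 fold changes of the genes of 6 retinoid and aldehyde dehydrogenase lists in the BPH-1 comparisons, filled where the adjusted p is below 0.05, with the median of the genes that passed the filter on low counts as an orange bar. In the uptake and storage list, LRAT and STRA6 lie at 3.46 and 3.37 in the metastasis-derived libraries. The value of SDR9C7, at the far right, depends on the prior count because its parental libraries are at 0.

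By Pearson correlation over the 21 deep libraries after subtracting the mean of each cell line, the genes most like ALDH1A3 were BCAR1 (0.96), SLC16A3 (0.96) and F12 (0.95). Those most like SDR16C5 were RNF149 (0.97), ACBD3 (0.97) and C1orf27 (0.96). The points of these correlations share the 3 deep BPH-1 metastasis-derived libraries, which lie apart from the rest.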

How the data were processed

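The authors deposited 4 tables of expected counts per gene symbol, made with the TOIL pipeline per the methods, and STAR, RSEM, cutadapt and FastQC on hg38 per the submitters' processing notes. Versions and annotation are not given in the sources used here. All 24 columns matched a listed sample. The expected counts were rounded and restricted to protein-coding genes of GENCODE, and places of genes come from that annotation. Genes were filtered by filterByExpr, scaled by TMM and tested by edgeR 4.0.16 (quasi-likelihood, Benjamini-Hochberg adjusted p below 0.05) in R 4.3.3. Log2 levels used a prior count of 2. Intervals of low-depth libraries are exact Poisson intervals at 95% and, like the depth of a count of 0 (3 counts), cover counting error only. The fits were tested on simulated data with known answers. There edgeR's share of false calls was near its threshold in most comparisons and about double it for deep BPH-1 metastasis-derived against parental libraries, where few small changes were recovered. DESeq2 made more false calls than its threshold allows in every comparison but BPH-1 C-Raf against vector, so calls that DESeq2 alone made are less reliable.

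Alternatives were DESeq2 1.42.0, RLE size factors, other filters on low counts, all genes of the tables, the low-depth libraries included, a replicate block, a term for the RWPE-1 table, fits over other sets of groups, each library left out, and library totals without TMM, the last chosen after seeing the data. The 10 genes and the lists were chosen with earlier results of these data known. List genes were named where past the threshold with a mean of at least 1 CPM in the fit, at most the 12 with the largest fold change per comparison, and the 3 most alike genes by correlation. The transcript of the overexpressed gene is not reported here.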

Additional observations from a re-analysis of the deposited data

Results flagged for a closer look

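ALDH1A3 in RWPE-1 C-Raf parental replicate 1 was 1290 CPM, apart from the other 3 libraries of its group, and SDR16C5 in the same library was 8.52 CPM, also the lowest of 4. This library was deposited in another table than the other 3. RDH10 in RWPE-1 metastasis-derived replicate 7 was 16.5 CPM, the highest of 7. These 3 came from 20 groups examined for an outlying library, of which chance flags about 1 in 20.

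The metastasis effect differed between the cell lines by a test of the difference itself for ALDH1A3 (-3.94 on the log2 scale, adjusted p = 4.6e-06) and SDR16C5 (2.86, adjusted p = 2.6e-06). The same test called 44.5% of 14257 genes, and in BPH-1 the effect of stage and that of table cannot be told apart.

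In the low-depth libraries, which entered no main test, DHRS9 in BPH-1 metastasis-derived replicate 2 was 47.3 CPM (22 counts, interval 29.7 to 71.7), above the highest vector control value of 3.75 CPM. DHRS3 in replicate 4 was 121 CPM (16 counts, interval 69.1 to 196), above the highest vector control value of 30.005 CPM. Only values above the vector control range were flagged, and other values lay below it. In replicate 2 DHRS3 had 0 counts (upper bound 7.94 CPM), below the lowest vector control value of 27.6 CPM. CRABP2 in replicate 2 was 8.61 CPM (4 counts, interval 2.35 to 22.04), below the lowest vector control value of 78.4 CPM. These levels are per protein-coding count without TMM.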

How the results depend on the processing

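Shared replicate numbers in BPH-1 did not pair vector with parental libraries (correlations of their deviations 0.04, -0.05 and -0.04). The replicate block called 7 genes of the set and 7678 of all genes, against 7904 without it. Over 1298 recomputed fold changes of the 10 genes, 1239 kept direction and call, 20 passed the threshold where the main value did not, 18 lost it and 21 changed sign, none of the last being called. The cause of these changes was not tested.

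A single fit of all 6 groups called 3 genes of the set and 319 of all genes for BPH-1 C-Raf against vector, 4 of the set (ALDH1A1, SDR16C5 and RARRES1 higher, ALDH1A3 lower) and 8618 of all genes for BPH-1 metastasis-derived against parental, and 30 against 13 in RWPE-1. With the 3 low-depth libraries the BPH-1 metastasis comparison called 3 genes of the set and 2106 of all, the comparison of effects between lines 4171 of all, and over both lines C-Raf against vector 37 of all and metastasis-derived against parental 2 of the set. In RWPE-1 the 13 genes became 20 with all genes of the tables, 5 with at least 10 counts in every library, 168 with DESeq2 and 7 with library totals. Over both lines, the 124 genes of C-Raf against vector became 68 with at least 10 counts, 460 with DESeq2, 72 with library totals and 1649 with only the 2 stages compared, with 1 gene of the set in DESeq2 and 4 with only the 2 stages. The 381 genes of metastasis-derived against parental became 1781 with all genes of the tables, 17 with at least 10 counts, 938 with DESeq2 and 168 with only the 2 stages, with 2, 0 and 2 genes of the set in the first 3. Library totals turned the calls of BPH-1 C-Raf against vector from 4015 higher and 3889 lower to 2947 higher and 4930 lower.

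With 1 library left out, the BPH-1 C-Raf comparison called 7 genes of the set every time. The BPH-1 metastasis comparison called 3 to 7 of the set and 1958 to 8303 of all genes, with 1958, 2013 and 2093 without parental replicates 1, 2 and 3 and 8303 without metastasis-derived replicate 3. RWPE-1 called 0 of the set and 4 to 40 of all, 40 without metastasis-derived replicate 5. Over both lines C-Raf against vector called 0 to 1 and 38 to 287, and metastasis-derived against parental 0 to 2 and 98 to 478.

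Signs changed as follows, with the range over left-out libraries where one of them did it. For BPH-1 C-Raf, RDH10 became -0.045 with library totals and ran from -0.020 (without vector replicate 1) to 0.045. For the BPH-1 metastasis comparison, RDH10 became -0.064 with all genes of the tables, -0.30 with library totals and -0.00766 with no filter, and ran from -0.047 (without replicate 6) to 0.10. DHRS3 became -0.16 with library totals and ran from -0.22 (without replicate 6) to 0.36. CRABP2 ran from -0.41 to 0.13, being 0.13 and 0.043 without replicates 1 and 6, and DHRS9 became 0.53 with the low-depth libraries. Between lines, DHRS9 became 0.72 with the low-depth libraries and RDH10 -0.16 with library totals. Over both lines, C-Raf against vector gave RDH10 0.023 with the low-depth libraries. Without the RWPE-1 vector library it gave ALDH3A1 0.091, RDH10 0.047 and CRABP2 0.097, with lowest values over left-out libraries of -0.80, -0.084 and -0.43. Metastasis-derived against parental gave DHRS9 0.17 and RDH10 0.056 with the low-depth libraries, and ALDH3A1 ran from -0.40 (without RWPE-1 metastasis-derived replicate 5) to 0.61, with -0.012 without RWPE-1 parental replicate 4. Depth limits ALDH1A1, RARRES1 and, in RWPE-1, DHRS9, which rest on few counts.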

Other observations

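In the low-depth BPH-1 metastasis-derived libraries ALDH1A3 had 39, 5 and 0 counts in replicates 2, 4 and 5. This corresponded to 83.9 CPM (interval 59.7 to 115) in replicate 2 and 37.8 CPM (interval 12.3 to 88.1) in replicate 4. In replicate 5 the 3 counts taken as the limit of a count of 0 correspond to 27.0 CPM, and the upper bound of the exact interval is 33.2 CPM. ALDH1A1 had 0, 1 and 1 counts in the same libraries, where 3 counts correspond to 6.46, 22.7 and 27.0 CPM. The deep libraries, at 4.55 to 9.16 CPM of ALDH1A1, lie below what 3 counts give in replicates 4 and 5 and around it in replicate 2.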
